A study of Mus musculus with 6 samples.

Results

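The splicing-sensitive arrays of this study interrogated 13002 alternative RNA processing events in mouse genes. Of these, 1071 were annotated as retained introns, that is, introns that are either removed from an mRNA or kept in it, and 625 of the 1071 spanned more than 250 bases from the first to the last position of the event. These 625 long retained introns, chosen by annotation and span alone, are described here, and the other 446 retained introns, of up to 250 bases, serve as their nearest comparison. The long introns spanned 251 to 5059 bases with a median of 692 and quartiles of 422 and 1208, and 205 of them spanned more than 1000 bases. They lay in 555 genes on 20 chromosomes, 329 on the plus and 296 on the minus strand. Of the 555 gene names, 523 matched a RefSeq mouse gene (GRCm38 table), 520 of them protein-coding and 3 long noncoding (Gas5, Snhg1 and Six3os1). Intensities were listed for 622 of the 625 introns, and those of Btn1a1, Vim and Espn had none. Positions are given as the deposited table gives them. Its genome build is not given in the sources used here, and the positions were not those of GRCm38, since only 8.84% of 588 matched introns fell inside their own gene's GRCm38 span.

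Brain RNA was taken from 6 mice of a congenic stock, 3 homozygous for Nxf1 CAST, the allele of a wild-derived strain, and 3 homozygous for Nxf1 B6, the allele of C57BL/6J. Each Nxf1 CAST animal had a same-sex Nxf1 B6 littermate, giving 2 pairs of females and 1 of males. The animals of the first pair were 46 days old, those of the second 22 (Nxf1 B6) and 23 (Nxf1 CAST), and those of the third 23. All animals carried the C57BL/6J background, and the Nxf1 CAST animals differed from their littermates by a segment of chromosome 19 that holds Nxf1 and many other genes, so effects of Nxf1 and of its linked neighbours cannot be told apart in this comparison. Each animal was hybridised to 1 Affymetrix MJAY array, but the deposited table holds, for each event, only values pooled over each set of 3 arrays. The sets are called A and B. Set B is likely Nxf1 CAST, because the table's header describes its score as mutant over wild type and names controls before experiments, yet it does not name either set by genotype, and directions are therefore given as set B against set A. With 1 pooled value per set there is no replicate spread, no SD and no test, and every difference below describes these 2 sets of arrays.

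Introns are normally cut out of a pre-mRNA before it leaves the nucleus. An mRNA that keeps an intron is often held in the nucleus or destroyed by RNA surveillance, and regulated intron retention is widespread in the nervous system, where it tunes how much functional mRNA a gene yields. Nxf1 encodes the main export receptor that carries mature mRNA through the nuclear pore, and it also exports certain retroviral and cellular RNAs that still hold an intron. The paper used the arrays as a general test of alternative splicing choices of many kinds. The question asked here of the long introns is whether the balance of intron-containing and spliced isoforms differed between the sets.

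The study designed RT-PCR primers for gel assays of 3 of the long introns, those of Abca5, of Ttc9c and of the unnamed transcript uc008cev-1. The primers are shown because they define the regions of the transcripts on which the array events were assayed a second time. They are written 5′ to 3′ in lower case.
Abca5, primer 1: tgttgccatttgtgagttcat
Abca5, primer 2: cgaagttcataggacatggtg
Abca5, primer 3: gcatgatgcatccaaataaga
Ttc9c, primer 1: aaaggagcgaagcctttttg
Ttc9c, primer 2: gtagcgctggtttccttcct
uc008cev-1, primer 1: cctcatcaaggtccaaagga
uc008cev-1, primer 2: gggcagagagttggatcgta
uc008cev-1, primer 3: gatgcacccaggatctcg

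For each event the table gives an exclusion intensity, read for a retained intron as the spliced isoform, and an inclusion intensity, the isoform that keeps the intron. The 2 come from different probe sets, so the level of one cannot be set against the level of the other, and only their changes between the sets can be compared. The shift of an event was log2 of its exclusion to inclusion ratio in set B divided by the same ratio of set A, so a positive shift means relatively more spliced isoform in set B. A shift was counted as large when its size exceeded 0.5, the study's size threshold, which is 1.41-fold. The study's own calls also required a limit on the false discovery rate, which was not applied here. An event past the threshold here is therefore not a call of the study.

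Most long introns had small shifts, and those with larger ones leaned toward more spliced RNA in set B. Of the 622 measured introns, 60 (9.65%), in 60 genes, had a shift over 0.5 in size, beside 7.24% of all 12553 measured events. Of these, 43 (6.91%) were above 0.5, beside 4.52% of all events, and 17 (2.73%) were below -0.5, beside 2.72%. The short retained introns gave 45 of 443 (10.2%), with 26 (5.87%) above and 19 (4.29%) below. The median shift was 0.09 in the long introns, -0.01 in the short ones and 0.03 in all events, and the shift was over 0 in 60.9%, 49.4% and 55.4% of them. The lean toward positive shifts was not particular to long introns, since alternative 3′ splice sites had a median shift of 0.10, with 60.8% over 0 and 55 events above 0.5 beside 18 below -0.5. The median size of the shift was 0.21 in the long introns, 0.22 in the short ones and 0.17 in all events. Among other event types, the share over 0.5 in size was 8.57% of cassette exons, 9.11% of alternative 3′ splice sites, 10.8% of alternative 5′ splice sites, 6.32% of alternative starts and 2.78% of alternative ends.

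**Figure D1:**
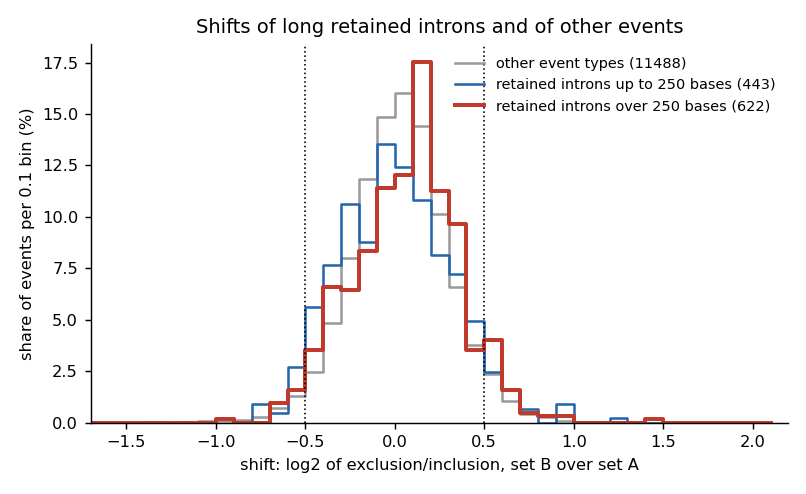
Distribution of the shift (x axis, log2 of the exclusion to inclusion ratio in set B over set A) as the share of events in each bin (y axis, %), for 622 long retained introns, 443 short retained introns and the events of all other types. Dotted lines mark -0.5 and 0.5, and the long introns sit slightly to the right of the others, with a median of 0.09 against -0.01 for the short introns.

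The split between the directions depended on where 0 was set. When every shift was reduced by the median of all events, 34 long introns were above 0.5 and 26 below -0.5, so that the share of the large shifts that were positive was 56.7% in place of 71.7%, beside 50.6% in place of 62.4% for all events. Dim probe sets also took a large part of the count. Of the 145 long introns with any intensity under 100, 24 (16.6%) had a shift over 0.5 in size, beside 10.3% of all such dim events, and of the 477 brighter ones 36 (7.55%) had, beside 6.42% of all events of that brightness. The long introns thus stood further above all events among the dim than among the brighter ones. When the long introns were ordered by the lowest of their 4 intensities, 24 of the 157 dimmest were past the threshold and the median size of the shift was 0.29, whereas 11 of the 156 brightest were, with a median size of 0.15. The examples below were therefore drawn mainly from introns whose 4 intensities were all at least 100.

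Among the introns with all intensities of at least 100, the highest shift was that of Chtop, listed on the array under its older name 2500003M10Rik. Chtop is a component of the TREX mRNA export complex that binds Nxf1, and its protein is known to act on the retention of an intron in its own RNA. The intron, at chr3:90311180-90311466 on the minus strand, spans 286 bases. Its exclusion intensity was 546 in set A against 813 in set B, and its inclusion intensity was 1825 in set A against 1404 in set B. The spliced form was thus 1.49-fold higher and the intron-containing form 0.769-fold as high in set B, a shift of 0.95 that was the second highest of the long introns and ranked 37 by size among all measured events. Other events of the same gene did not share this shift. A cassette exon had a shift of 0.06, and a complex event with exclusion intensities under 100 had one of -0.25.

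Coasy, which encodes the bifunctional enzyme of the last steps of coenzyme A synthesis, showed the same pattern. For its 308-base intron (chr11:100944004-100944312, plus strand) the exclusion intensity was 278 in set A against 398 in set B and the inclusion intensity 727 in set A against 579 in set B, a shift of 0.85. Both isoforms moved, in opposite directions. Ablim3, an actin-binding LIM protein gene, had an exclusion intensity of 134 in set A against 168 in set B and an inclusion intensity of 568 in set A against 427 in set B, a shift of 0.74. Mbd6, a methyl-CpG-binding domain family gene, had an exclusion intensity of 349 in set A against 449 in set B and an inclusion intensity of 913 in set A against 761 in set B, a shift of 0.63. In Ablim3 the intron-containing form moved more than the spliced form, and in Mbd6 the spliced form moved more.

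In the other bright introns with the highest shifts, the spliced form moved more than the intron-containing form. Hyal3, a hyaluronidase family gene, had an exclusion intensity of 110 in set A against 181 in set B beside an inclusion intensity of 221 and 217, a shift of 0.74. Dnal4, a dynein light chain gene listed as Dnalc4, had an exclusion intensity of 175 in set A against 265 in set B beside an inclusion intensity of 685 and 656, a shift of 0.66. In both, the inclusion intensities of the sets lay close together. Hgs encodes an endosomal sorting protein that binds ubiquitinated cargo, and its intron had an exclusion intensity of 427 in set A against 615 in set B beside an inclusion intensity of 152 and 140, a shift of 0.65. Gusb, the gene of the lysosomal enzyme beta-glucuronidase, had an exclusion intensity of 249 in set A against 359 in set B beside an inclusion intensity of 254 and 237, a shift of 0.63. In these introns too the spliced form moved more. Patz1, a zinc finger transcription factor gene, had an exclusion intensity of 368 in set A against 505 in set B, an inclusion intensity of 210 and 185 and a shift of 0.64. Cyp1b1, a cytochrome P450 gene, had an exclusion intensity of 141 in set A against 209 in set B, an inclusion intensity of 117 and 109 and a shift of 0.67.

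Of the 622 measured introns, only that of the unnamed X-linked transcript uc009uap-1 had a shift over 1 in size. Its exclusion intensity was 112 in set A against 179 in set B, and its inclusion intensity was 128 in set A against 73 in set B, a shift of 1.49. This was a dim event, with an intensity under 100 in set B.

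With 50 added to each intensity, 4 introns in place of 17 had a shift below -0.5, and of the introns described next those of Rps13, Qsox1, Zc3h7b, Zmym5 and Nsa2 no longer passed the threshold. The bright introns with the lowest shifts included that of Rps13, a gene of the small ribosomal subunit. It had an exclusion intensity of 205 in set A against 140 in set B and an inclusion intensity of 275 in set A against 290 in set B, a shift of -0.63. The spliced form was lower and the intron-containing form slightly higher in set B. Pttg1, the gene of securin, which inhibits the protease separase until anaphase, had the lowest shift of the bright introns, -0.68, with an exclusion intensity of 616 in set A against 435 in set B and an inclusion intensity of 186 in set A against 210 in set B. Qsox1, an oxidase gene of the secretory pathway, had an exclusion intensity of 172 in set A against 127 in set B, an inclusion intensity of 208 and 236 and a shift of -0.62.

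Vamp1 encodes a synaptic vesicle protein of the machinery that fuses vesicles with the plasma membrane. Its 412-base intron (chr6:125169655-125170067, plus strand) had an exclusion intensity of 1165 in set A against 725 in set B and an inclusion intensity of 1126 in set A against 1076 in set B, a shift of -0.62. The spliced form thus stood at 0.622-fold of its set A value, while the intron-containing form changed little. The same was true of Zmym5, a zinc finger gene (exclusion 283 in set A against 184 in set B, inclusion 319 and 305, shift -0.56) and of Nsa2, a ribosome assembly gene listed as 5730427N09Rik (exclusion 671 and 450, inclusion 149 and 143, shift -0.52). Zc3h7b, a CCCH zinc finger gene, had a different pattern. Its exclusion intensity was 2926 in set A against 2824 in set B, whereas its inclusion intensity was 257 in set A against 369 in set B, a shift of -0.57. Here the change was in the intron-containing form. Mef2d, a transcription factor gene active in neurons and muscle, fell just short of the threshold at -0.49, with an exclusion intensity of 2167 in set A against 1537 in set B and an inclusion intensity of 4843 and 4821.

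**Figure D2:**
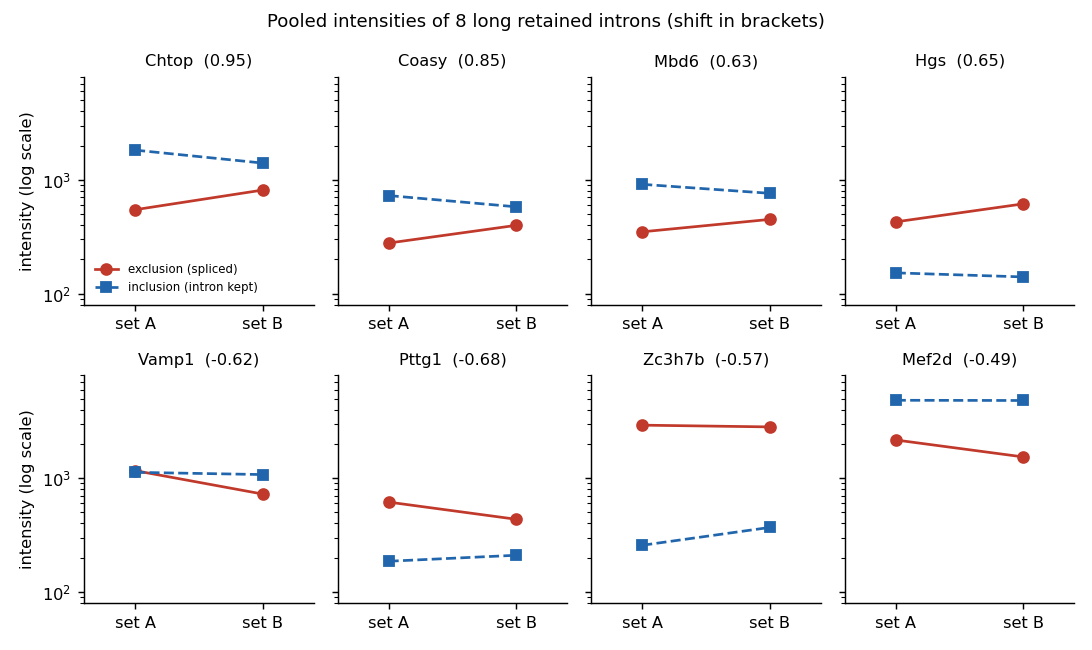
Pooled exclusion (spliced, circles) and inclusion (intron kept, squares) intensities in set A and set B, on a log scale, for 8 long retained introns, with the shift of each in brackets. Each point is 1 pooled value with no error, and the height of one isoform's points cannot be set against the other's. In Chtop, Coasy and Mbd6 the lines converge, whereas in Vamp1 and Mef2d the spliced form alone is visibly lower in set B.

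The examples above were picked mainly for their extreme shifts and are no separate support for the counts that follow. Across the 622 introns the exclusion change (log2 of set B over set A) had an SD of 0.27 and the inclusion change one of 0.17, beside 0.25 and 0.20 over all events. Among the 60 introns past the threshold, the exclusion intensity moved more than the inclusion intensity in 47 (78.3%), beside 72.6% of all events past it. The isoforms moved in opposite directions in 46 of the 60 (76.7%), beside 82.0%, a share that the choice of large shifts itself favours. Of the 43 introns above 0.5, the spliced form was higher in set B in 42 (97.7%, beside 97.2% of all events above 0.5) and the intron-containing form lower in 37 (86.0%, beside 84.8%). Of the 17 below -0.5, the spliced form was lower in all 17, beside 95.9% of all events below -0.5, and the intron-containing form higher in 10 (58.8%), beside 86.0%. The median exclusion change was 0.02 and the median inclusion change -0.06 in the long introns, whereas both were 0.05 in the short ones. The positive median shift of the long introns therefore came with lower intron-containing signal in set B more than with higher spliced signal.

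**Figure D3:**
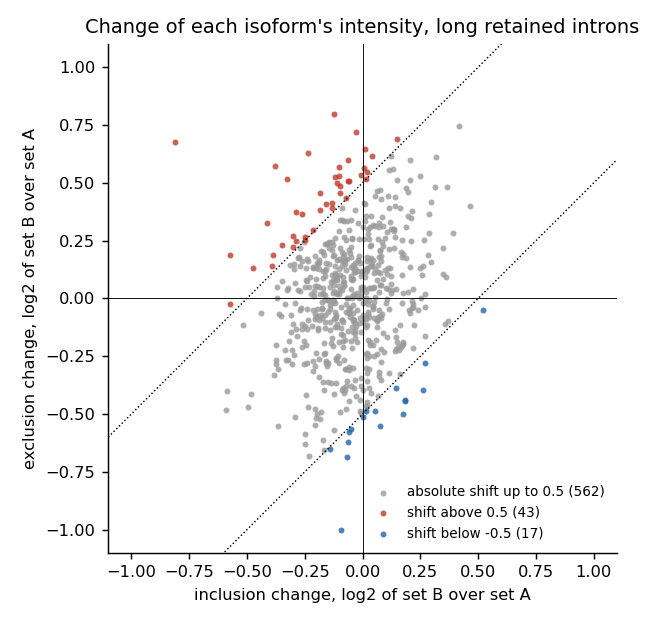
Exclusion change (y axis) against inclusion change (x axis), each the log2 of set B over set A, for 622 long retained introns, each point 1 intron. Dotted diagonals mark shifts of -0.5 and 0.5, with 43 introns above the upper and 17 below the lower line, and the cloud is taller than it is wide (SD 0.27 against 0.17).

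Genes that act in RNA processing and in the brain were examined as groups. Among splicing factors and splicing kinases, 29 long introns in 26 genes were measured, and 1 (3.45%) passed the threshold, beside 6.99% of the 272 events of all types in this list. The count was 3 after centring on the median of all events, when Clk3 and Dhx35 passed as well, and 0 with 50 added to each intensity. The intron was that of Lsm11, a component of the U7 particle that processes histone mRNA ends, with an exclusion intensity of 90 in set A against 127 in set B, an inclusion intensity of 558 and 517 and a shift of 0.61. The median shift of the group was 0.03, and its other shifts ran from -0.49 to 0.34. The lowest were those of Clk3, a kinase that phosphorylates SR splicing factors (-0.49), and Dhx35, a helicase gene (-0.49). The highest after Lsm11 was that of Hnrnpdl, an hnRNP gene listed as Hnrpdl (0.34). Introns of Clk1, Clk4, Tardbp, Srrm1 and Sf3b1 all stayed within 0.25 of 0. The list was drawn by gene name and also took in genes with other roles, such as Ddx26b.

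The RNA export and nuclear pore list had 4 long introns, of which 1 passed the threshold (0 with 50 added to each intensity), beside 6 of the 60 events of all types in this list. Besides that of Zc3h7b (-0.57), they were those of Ranbp3, a nuclear export cofactor (-0.21), Zc3h11a, a TREX-associated gene (0.06), and Nupl1, a nucleoporin gene (0.26). Chtop was not on this list, which was drawn by the starts of gene names and included neither its current nor its older name. Nxf1 itself had no event in the table.

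Synapse, channel and receptor genes had 13 long introns in 11 genes, of which 4 passed the threshold, 3 above and 1 below, beside 8.24% of the 376 events of all types in this list. Their median shift was 0.24. Stx17, a syntaxin of autophagosomes, had an exclusion intensity of 943 in set A against 1106 in set B and an inclusion intensity of 726 in set A against 570 in set B, a shift of 0.58. Camk2d, a calcium/calmodulin-dependent kinase gene, had an exclusion intensity of 272 in set A against 317 in set B and an inclusion intensity of 307 and 249, a shift of 0.52. The intron below the threshold was that of Vamp1, and the sodium-activated potassium channel gene Kcnt1 held introns on both sides of 0 (-0.47 and 0.24). After centring, 2 introns of the group were above and 2 below, with Kcnt1 among the latter, and with 50 added 3 passed.

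Ribosomal and mitochondrial respiration genes, with the initiation factors, had 17 long introns in 14 genes. The threshold was passed by 2 introns, both below it and that of Rps13 among them, beside 12.2% of the 197 events of all types in this list, and the group's median shift was 0.01. With 50 added to each intensity the count was 1, since that of Rps13 no longer passed. Rps24 (-0.34) was also below 0, Rps12 had introns at -0.31 and 0.03, and both introns of Rps3 were above 0 (0.02 and 0.14). The initiation factor genes lay on both sides of 0, with Eif4a2 (0.30) and Eif5 (0.26) the highest of the group, Eif4a1 at 0 to 2 decimals and Eif2s2 at -0.38. Chromatin and transcription genes had 18 long introns in 17 genes with a median shift of 0.10, and 2 (11.1%) were above 0.5, a share near those of all events in this list past the threshold (8.08% of 396) and of all long introns (9.65%), and the count was 1 after centring or with 50 added to each intensity, since Phf20l1 no longer passed. Phf14, a PHD finger gene, had a dim exclusion intensity of 57 in set A against 65 in set B and an inclusion intensity of 425 in set A against 286 in set B, a shift of 0.76. Phf20l1, a reader of methylated lysine, had an exclusion intensity of 74 in set A against 89 in set B and an inclusion intensity of 424 and 357, a shift of 0.51. The lowest of this group were those of Med25, a Mediator subunit gene (-0.28), and Zfp287, a zinc finger gene (-0.28).

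**Figure D4:**
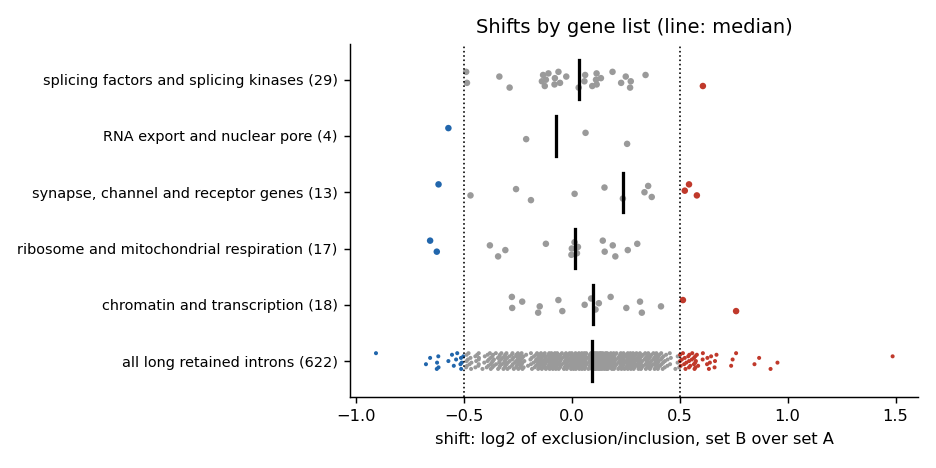
Shift (x axis, log2, set B over set A) of each long retained intron in 5 gene lists and of all 622 long introns, with the number of introns in brackets. Black lines are medians and dotted lines mark -0.5 and 0.5, with introns past them coloured. The medians lie between -0.07 for the 4 export introns and 0.24 for the 13 synapse, channel and receptor introns.

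Without an added offset, span made little difference to how often an intron passed the threshold. The introns were ordered by span and divided into 4 groups of like size that reached up to 422, 697, 1208 and 5059 bases, and 16, 13, 16 and 15 introns passed it. Among the shortest, 15 of the 16 were above 0.5 and 1 below, and among the longest 9 were above and 6 below, but after centring on the median of all events these counts were 11 and 6 among the shortest and 8 and 7 among the longest. With 50 added to each intensity, 9, 5, 7 and 3 introns passed. Of these, 8 were above and 1 below among the shortest, and 3 above and 0 below among the longest. The median shifts were 0.10, 0.10, 0.11 and 0.06. The 3 longest introns all had small shifts. They were the 5059-base intron of Tspan7, a brain-rich tetraspanin gene (0.13), the 4584-base intron of Rufy2, an endosomal adaptor gene (0.23), and the 4560-base event of uc008evq-1 (-0.07). Just inside the limit of 250 bases were introns of Acap1, listed as Centb1 (251 bases, shift 0.53), Spryd3 (252 bases, 0.11) and Rgl3 (253 bases, -0.10). Just outside it were those of Smpd2 (250 bases, -0.12), Fbxl6 (249 bases, 0.68) and Fndc4 (249 bases, 0.01).

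**Figure D5:**
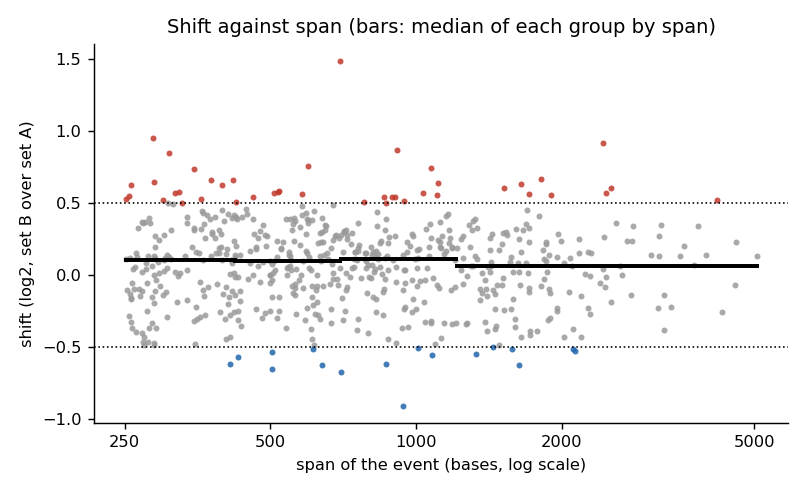
Shift (y axis, log2, set B over set A) against the span of the event in bases (x axis, log scale) for 622 long retained introns, each point 1 intron. Black bars are the medians of the 4 groups by span, 0.10, 0.10, 0.11 and 0.06, and dotted lines mark -0.5 and 0.5.

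By chromosome, the share of long introns with a shift over 0.5 in size was 22.2% on chromosome 15 (4 of 18), beside 6.61% of all events there, 21.6% on chromosome 11 (11 of 51), beside 8.82%, and 20.0% on chromosome 14 (4 of 20), beside 8.60%. Over the 20 chromosomes, the share was higher in the long introns than in all events on 12 and lower on 8, for example on chromosome 1 (1 of 39, or 2.56%, beside 5.31%) and chromosome 9 (2 of 46, or 4.35%, beside 6.37%). None of the 27 introns on chromosome 19, beside 7.71% of all events, and none of the 19 on chromosome 12, beside 5.52%, had such a shift. The region of chromosome 19 between the outermost genes that the study placed in the congenic interval (19:7053631-11866235) held 8 long introns. Their shifts were 0.39 for Bscl2, the seipin gene of lipid droplets, 0.12 for Lgals12, a galectin gene, 0.09 for Taf6l, a subunit of histone acetyltransferase complexes, 0.08 for Ms4a7, a membrane protein gene of macrophages, 0.04 for uc008gkm-1, 0.01 for Tmem132a, a transmembrane protein gene, -0.17 for Ttc9c and -0.33 for Snhg1, a noncoding host gene of small nucleolar RNAs. None passed the threshold, whereas 6 of the 70 measured events of all types in the region did. In this region the CAST and C57BL/6J transcripts can differ under the probes, so a difference in RNA and a difference in hybridisation cannot be told apart there.

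The 3 introns taken to gel assays by the study, whose primers are given above, had shifts on both sides of 0 as computed here. The paper chose its gel assays of array events by the most extreme of its own scores, which were not used here. In Abca5, a lipid transporter gene of the ABC family, the exclusion intensity was 99 in set A against 63 in set B and the inclusion intensity 172 and 156, a shift of -0.51. In Ttc9c, a tetratricopeptide repeat gene, the exclusion intensity was 151 in set A against 113 in set B and the inclusion intensity 1693 and 1429, a shift of -0.17. Both isoforms were lower in set B in each of these genes. In uc008cev-1 the exclusion intensity was 77 in set A against 96 in set B and the inclusion intensity 132 and 136, a shift of 0.28. Of the 3, the intron of Abca5 alone passed the threshold, and with 50 added to its dim intensities its shift was -0.29.

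Some genes held several of these introns. In 62 genes at least 2 long introns were measured, 132 introns in all. Their shifts all had the same sign in 27 of the 62 genes, 23 above 0 and 4 below, and both signs in 35, but many of these shifts were close to 0 and their signs carry no error. Exosc5, a subunit of the RNA exosome, which degrades and trims RNA, had 4 long introns with shifts of 0.26, 0.20, -0.07 and -0.18. Echs1, a gene of mitochondrial fatty acid oxidation, had shifts of 0.05, -0.11 and one at 0 to 2 decimals, and Ankrd24, an ankyrin repeat gene, had shifts of 0.44, 0.29 and 0.03.

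The 60 genes with a long intron past the threshold had 96 other measured events in 40 of the genes, and 9 of these (9.38%), in 8 genes, were also over 0.5 in size, beside 7.24% of all events. In Coasy a cassette exon had a shift of 0.73, and in Vamp1 an alternative start had one of -0.60, each with the sign of the gene's intron. In Patz1 a cassette exon had a shift of 0.52. In Hyal3 a complex event had a shift of -0.54, the sign opposite to its intron. Events of 1 gene can share probes and exons, and are not independent of each other.

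The tissue label was checked on the larger intensity of each marker gene's events, of any type. Probe sets differ, so these values show that a marker was detected but do not rank the genes. All 6 of the 9 neuronal markers that had events were far above the dim limit of 100, with Snap25 at 12087 in set A against 11162 in set B, as were the 4 of 6 oligodendrocyte markers with events, with Mbp at 11314 and 10504. Of the 4 astrocyte markers with events, Slc1a2 stood at 9980 and 10330 and Aldh1l1 at 416 and 357. All 4 measured oligodendrocyte markers were lower in set B, by 0.03 to 0.18 on the log2 scale, and 3 of 4 astrocyte markers were higher. The microglial markers stood at 914 and 940 (Cd68), 434 and 459 (Csf1r) and 258 and 235 (Itgam), the endothelial markers at 712 and 627 (Flt1) and 405 and 378 (Pecam1), the blood marker Alas2 at 167 and 218 and Dcx, a marker of immature neurons, at 785 and 670. None of 6 liver genes had an event, so that check could not be made. The part of such differences in cell makeup in the shifts of the introns was not tested, and in whole tissue fewer cells of a type and less RNA per cell cannot be told apart.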

How the data were processed

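Total brain RNA of 6 mice was hybridised to splicing-sensitive arrays. The deposited table holds scores in the form of normalized array intensities rounded to whole numbers, which the authors pooled over each set of 3 arrays, for the exclusion and inclusion isoform of each event. The submitters' processing notes name Affymetrix Power Tools, and the normalization is not given in the sources used here. The table also holds the authors' separation scores and q-values, which are their own comparison and were not used. Values per array were not analysed here, so no test could be made. Shifts were computed with Python 3.11.15, numpy 2.4.6 and pandas 2.3.3 from the exclusion row of each event name (the first where a name recurs), on 12553 of 12607 events, and the calculation was tested on simulated data. Where the rows of an event gave different spans, as for Eif4a1 (288 and 202 bases), the exclusion row decided. Named were the 10 highest and 10 lowest shifts among introns with all intensities of at least 100, introns with a shift over 1 in size, those with gel primers, those in the congenic interval, the longest and the nearest to 250 bases, the extremes of each gene list, and up to 4 genes with several introns; the other introns named were chosen after their values were seen. Introns and lists were chosen with earlier results of these data known. Some introns that this rule names are not reported here. Alternative thresholds, an intensity filter, an added offset, centring, other span limits and 1 event per gene were tried. The number of arrays limits the precision.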

Additional observations from a re-analysis of the deposited data

How the results depend on the processing

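No paired analysis was possible because the intensities used here are pooled over each set of 3 arrays and carry no replicate number; values per array were not analysed here, so no array was left out. The 60 long introns past 0.5 in size (43 above, 17 below) became 25 (18 and 7) at a threshold of 1.5-fold, 1 (1 and 0) at a log2 of 1, 36 (27 and 9) without intensities under 100, and 24 (20 and 4) with 50 added to each intensity, where the share of all events past the threshold was 3.13% and that of the long introns 3.86%. At 1.5-fold the shares were 3.76% and 4.02%. Short retained introns had higher shares than long ones in 4 settings, 6.09% at 1.5-fold, 9.77% against 7.55% without dim intensities, 5.64% with the offset, and 12.0% against 9.65% after centring. Centring on all events left the total at 60 with 26 below, and a span over 500 bases left 26 above. The median shift of 0.0917 became 0.0991 without dim events, 0.0842 with the offset, 0.0581 after centring and 0.0824 for spans over 500. The median size of 0.21 became 0.19 without dim events, 0.17 with the offset, 0.20 after centring, 0.22 for spans over 200, 0.20 for spans over 500 and 0.22 with 1 event per gene. The added offset draws dim events toward 0, and 10 of the 27 named introns past the threshold no longer passed it there, among them those of Rps13, Qsox1, Zc3h7b, Zmym5, Nsa2, Abca5, Acap1, Lsm11 and Phf20l1. Centring removed 2 (Acap1 and Phf20l1) and added 4 (Mef2d, Clk3, Dhx35 and Kcnt1), and took the small shift of Tmem132a from 0.01 to -0.03. None of the 27 changed direction under the alternatives run. With no replicate values, array-to-array error could not be separated from any shift.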
